A study of Caenorhabditis elegans with 2 samples.

Results

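The genes described here are 5 members of the miR-51 microRNA family of Caenorhabditis elegans, cel-mir-52, cel-mir-53, cel-mir-54, cel-mir-55 and cel-mir-56, out of 261 annotated microRNA genes. They were chosen by name, with their RNA polymerase II peaks in these data already known. The rule read every peak summit from 2000 bp upstream of the annotated 5′ end to 500 bp past the 3′ end of each gene. The positions and signal values of those summits are therefore a description, and no test was made on them.

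Chromatin immunoprecipitation and sequencing (ChIP-seq) was carried out with an antibody to AMA-1, which is the largest RNA polymerase II subunit. The material was whole larvae at the L2 stage, mixed in sex, of N2, the standard laboratory wild type, and the labels give their age as unknown. There was 1 group with 2 biological replicates and no second genotype, treatment or stage. Whole animals mix all tissues, so a summit has no tissue of origin, and the labelled material was not checked against tissue markers.

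The replicates stood apart at 4 microRNA genes known for timing larval development, which were picked after their values were seen. The highest summit in the window had rank 14896 in the replicate 1 list and rank 470 in the replicate 2 list (1 for the highest signal) at cel-lin-4, and ranks 8307 and 355 at let-7. At cel-mir-48 and cel-mir-241 the replicate 1 list had no summit in the window, and the replicate 2 list had ranks 615 and 348. These 4 genes therefore stood high in replicate 2 and low or unlisted in replicate 1. The let-7 relative cel-mir-84 was also unlisted in replicate 1 but had only rank 6172 in replicate 2. Other microRNA genes differed as widely, and in both directions. Ranks in replicates 1 and 2 were 26395 and 102 at cel-mir-8196a, but 624 and 7623 at cel-mir-72, and cel-mir-253 had rank 350 in replicate 1 and no summit in replicate 2. The share of all microRNA genes that differed so widely was not counted, so nothing particular to timing genes is read from these values. The part of this difference between replicates in the members' values was not tested. The members' values are given for each replicate.

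MicroRNA genes are transcribed by RNA polymerase II into primary transcripts, from which Drosha (DRSH-1) with its partner PASH-1 cuts a hairpin and Dicer (DCR-1) then releases the mature strand. The Argonautes ALG-1 and ALG-2 carry that strand to messenger RNAs, which are recognised mainly through the seed, the bases near its 5′ end. The miR-51 family belongs to the same ancient group as miR-99 and miR-100 of other animals. It is broadly expressed in the worm, and embryos that lack the whole family die, with a failure of the pharynx to stay attached in which the cadherin gene cdh-3 is a known target.

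The seed, bases 2 to 8 of the mature strand, is what defines the family. It is shown in capitals in the mature strands below, read from the RefSeq annotation and genome (WBcel235, which is ce11) and written 5′ to 3′ with T for U.
cel-mir-52 5p (chrIV:14034024-14034047, plus strand): cACCCGTAcatatgtttccgtgct
cel-mir-53 5p (chrIV:11027653-11027676, minus strand): cACCCGTAcatttgtttccgtgct
cel-mir-54 3p (chrX:13145011-13145034, minus strand): tACCCGTAatcttcataatccgag
cel-mir-55 3p (chrX:13144842-13144864, minus strand): tACCCGTAtaagtttctgctgag
cel-mir-56 3p (chrX:13144706-13144727, minus strand): tACCCGTAatgtttccgctgag

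The 5 members carried the same seed, ACCCGTA, but not on the same arm of the hairpin. In cel-mir-52 and cel-mir-53 it lay on the 5p arm, and in cel-mir-54, cel-mir-55 and cel-mir-56 on the 3p arm. The mature strands of cel-mir-52 and cel-mir-53 were identical at 23 of 24 positions, counted from the first base without gaps. The other 9 pairs were identical at 39.1 to 63.6% of the positions compared, and 8 of 22 positions were the same in all 5 strands. Of 260 microRNA genes with a mature sequence in RefSeq, 6 carried the seed, and the additional one was cel-mir-51, which is not among the listed members.

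The 5 genes lie at 3 places. The cel-mir-52 gene (WBGene00003280; chrIV:14034008-14034107, plus strand) stands apart from the others, with its hairpin antisense to a short noncoding RNA annotated from -66 to 82 bp of its 5′ end. The cel-mir-53 gene (WBGene00003281; chrIV:11027593-11027691, minus strand) lies in no other annotated gene, and cel-mir-51 follows it on the same strand after 1480 bp. The genes cel-mir-54 (WBGene00003282; chrX:13144996-13145094), cel-mir-55 (WBGene00003283; chrX:13144827-13144924) and cel-mir-56 (WBGene00003284; chrX:13144691-13144787) follow one another on the minus strand, with 71 bp and then 39 bp between them. All 3 lie in an intron of the protein-coding gene F09A5.3, on the opposite strand to it, and cel-mir-55b is annotated opposite to cel-mir-55.

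At each of the 3 places, the stretch from 200 bases before the 5′ end to the end of the first hairpin is printed below, 5′ to 3′ on the strand of the microRNA, because the strongest AMA-1 summit of each place falls within it. Capitals mark the 21 bases centred on that summit in the optimal list, and the sequence is from the RefSeq genome, WBcel235.
cel-mir-52 (chrIV:14033808-14034107, plus strand): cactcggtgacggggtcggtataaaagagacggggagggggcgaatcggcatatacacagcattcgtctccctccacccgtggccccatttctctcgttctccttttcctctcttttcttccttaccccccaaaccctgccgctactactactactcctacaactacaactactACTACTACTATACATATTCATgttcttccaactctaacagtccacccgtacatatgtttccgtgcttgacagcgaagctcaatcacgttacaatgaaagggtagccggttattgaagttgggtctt
cel-mir-53 (chrIV:11027593-11027891, minus strand): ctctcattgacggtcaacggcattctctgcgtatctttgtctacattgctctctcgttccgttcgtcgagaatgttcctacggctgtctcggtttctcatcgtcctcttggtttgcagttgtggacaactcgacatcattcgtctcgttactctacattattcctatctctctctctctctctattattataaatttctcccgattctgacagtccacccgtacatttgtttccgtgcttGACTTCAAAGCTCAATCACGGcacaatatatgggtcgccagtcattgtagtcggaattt
cel-mir-54 (chrX:13144996-13145294, minus strand): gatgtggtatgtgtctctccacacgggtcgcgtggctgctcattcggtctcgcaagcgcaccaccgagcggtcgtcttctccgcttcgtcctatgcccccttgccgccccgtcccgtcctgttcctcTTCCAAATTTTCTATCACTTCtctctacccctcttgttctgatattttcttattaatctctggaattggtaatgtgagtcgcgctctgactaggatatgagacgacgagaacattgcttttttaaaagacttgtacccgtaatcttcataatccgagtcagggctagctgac

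The 4 peak lists on ce11 were used. The optimal list holds 1861 peaks and was thresholded by the authors with the irreproducible discovery rate (IDR), a comparison of replicates. Its peaks are the 1861 highest of a pooled list of 30000 peaks. For 1643 of them a summit lay within 200 bp in both replicate lists, so an optimal peak need not have a match in both. Each replicate also has its own list of 30000 peaks, which holds background as well as enriched regions. The signal of a peak is the authors' own value on a scale not given in the sources used here, so it is set beside its rank (1 for the highest) and compared within a list only. Median signal was 65.5 in the optimal list, 9.99 in the replicate 1 list and 6.72 in the replicate 2 list. Summit positions count from the annotated 5′ end of the hairpin, with negative values upstream.

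All 5 members had an optimal summit in the window (5 of 5), and the strongest lay at or near the first hairpin of each place. These were 6 distinct summits, 3 at cel-mir-52, 1 at cel-mir-53 and 2 shared by cel-mir-54, cel-mir-55 and cel-mir-56. Among the 256 other microRNA genes 36 had one (14.1%, Wilson 95% interval 10.3 to 18.9%), and among 19973 protein-coding genes read with the same kind of window 1957 did (9.80%, interval 9.39 to 10.2%). That window takes in the whole gene, so it was usually longer for a protein-coding gene than for a hairpin. Since the members were proposed with these summits known, nothing is read from the difference between these shares. Counting once the genes that share a strongest summit, the 5 members come to 3 places.

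cel-mir-52 had the highest signal of any microRNA gene in the optimal list. Its strongest summit, at -16, had a signal of 1033 and rank 5 of 1861, and it was the highest of the 277 optimal summits on chromosome IV. The summit lies just before the annotated hairpin, in the antisense noncoding RNA already mentioned and in another on the same strand, annotated from -451 to -4. In the replicate 1 list the matching summit was at -34 with a signal of 640 and rank 5, and in the replicate 2 list at 29 with a signal of 410 and rank 2. Both replicates therefore placed this locus among their 5 highest peaks, with summits on either side of the 5′ end and 63 bp apart.

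Each of the other optimal summits of cel-mir-52 was lower. One lay at 187, which is 88 bp past the 3′ end of the hairpin and in no annotated gene, with a signal of 204 and rank 72; its replicate signals were 84.9 (rank 266) and 71.5 (rank 78) in replicates 1 and 2. Its peak interval of 757 bp was the same as that of the summit at -16, so both summits belong to a single wide region. The summit farther upstream, at -1074 in an antisense noncoding RNA annotated from -1206 to -1011, had a signal of 129 and rank 191, with replicate signals of 81.6 (rank 294) and 47.6 (rank 190). Replicate 2 held a further low summit at -920, with a signal of 10.6 and rank 7199, and the pooled list held no summit in the window beyond those 3.

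cel-mir-53 had 1 optimal summit, and it lay inside the hairpin. It was at 50, between the 5p and 3p arms, with a signal of 238 and rank 47 in a peak of 187 bp, against a median peak width of 370 bp in the optimal list. The replicate 1 list had its summit at the same base with a signal of 206 and rank 42. The replicate 2 list had it at 87 with a signal of 27.6 and rank 794, still above the median of that list but far lower in its order than in replicate 1. A second pooled summit at -1011, in a coding exon of hrg-5, had a signal of 9.31 and rank 26132 of 30000, near the bottom of the list.

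The group on X shared its summits. The stronger one, at -63 from the 5′ end of cel-mir-54, had a signal of 246 and rank 44, with a summit in the replicate 1 list at -32 (signal 193, rank 47) and in the replicate 2 list at -63 (signal 59.0, rank 115). The same summit is at -233 from cel-mir-55 and at -370 from cel-mir-56, upstream of all 3 hairpins. The weaker one lay at 447 from cel-mir-54, which is 44 bp past the 3′ end of cel-mir-56, the last hairpin. Its signal was 96.3 (rank 364), with 55.9 (rank 704) in replicate 1 and 47.5 (rank 193) in replicate 2. The group thus had an optimal summit ahead of its first hairpin and one behind its last, and none between them.

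One more optimal summit near the group fell just outside the window. It was 1001 bp from the 5′ end of cel-mir-54 and 598 bp past the 3′ end of cel-mir-56, in the same intron of F09A5.3. Its signal of 96.1 and rank of 366 in the optimal list were next to those of the summit inside the window. Its replicates were less alike, with a signal of 83.2 (rank 278) in replicate 1 and 22.4 (rank 1393) in replicate 2. Farther upstream, the pooled list held a low summit at -1285 from cel-mir-54, with a signal of 12.8 and rank 18148.

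**Figure D1:**
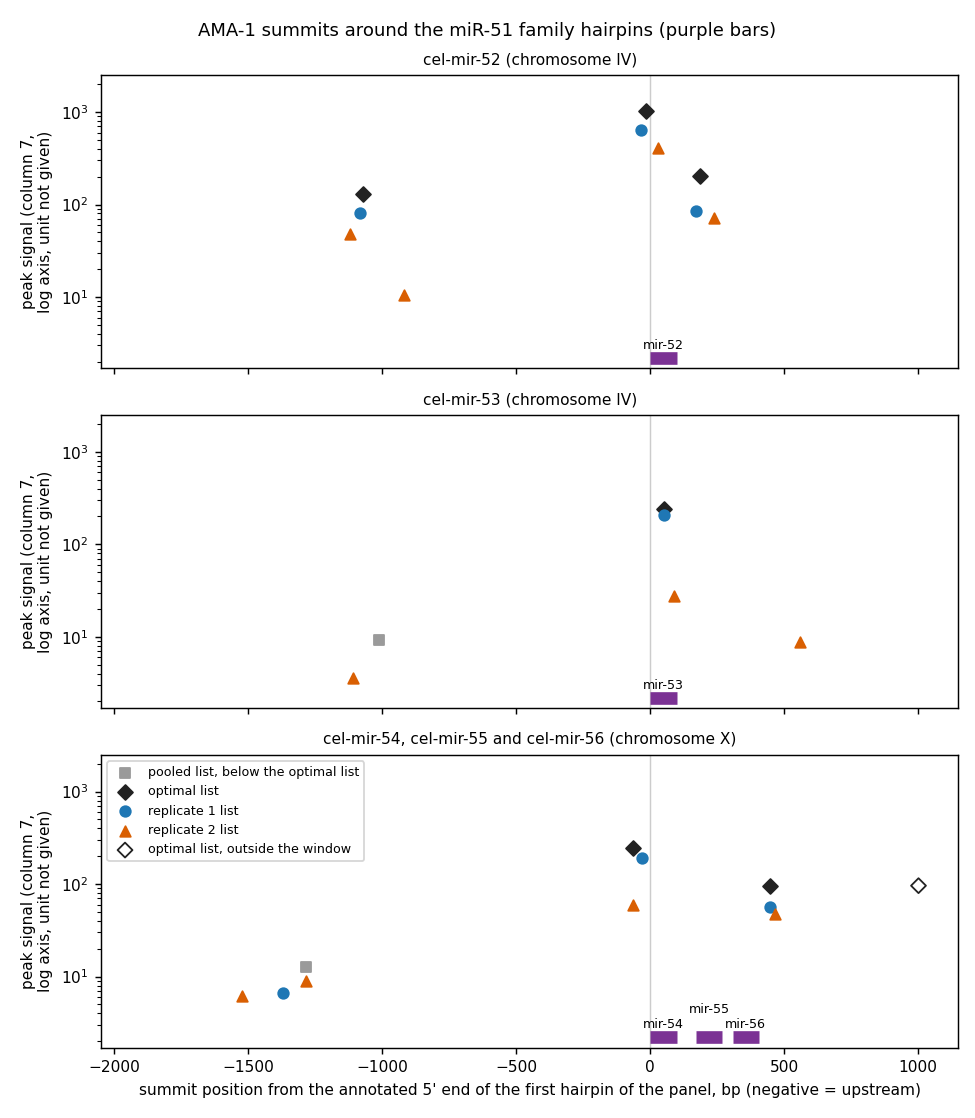
Position (horizontal axis, bp from the 5′ end of the first hairpin) and signal (vertical log axis, authors' units) of every summit in the windows, by list, with hairpins as purple bars. The optimal summits at -16, 50 and -63 sit at or next to the first hairpin of each place, and the open diamond is the summit at 1001 that lies outside the window.

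The order of the family's places by signal was cel-mir-52 first, then the group on X and cel-mir-53, which were nearly level. In the optimal list the signal at cel-mir-52 was 4.20 times that at cel-mir-54 and 4.34 times that at cel-mir-53. The X group (rank 44) and cel-mir-53 (rank 47) exchanged order in replicate 1, with ranks 47 and 42, and stood far apart in replicate 2, with ranks 115 and 794. The order of those last 2 places is therefore not settled by these replicates, whereas cel-mir-52 was first of the 3 in both.

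**Figure D2:**
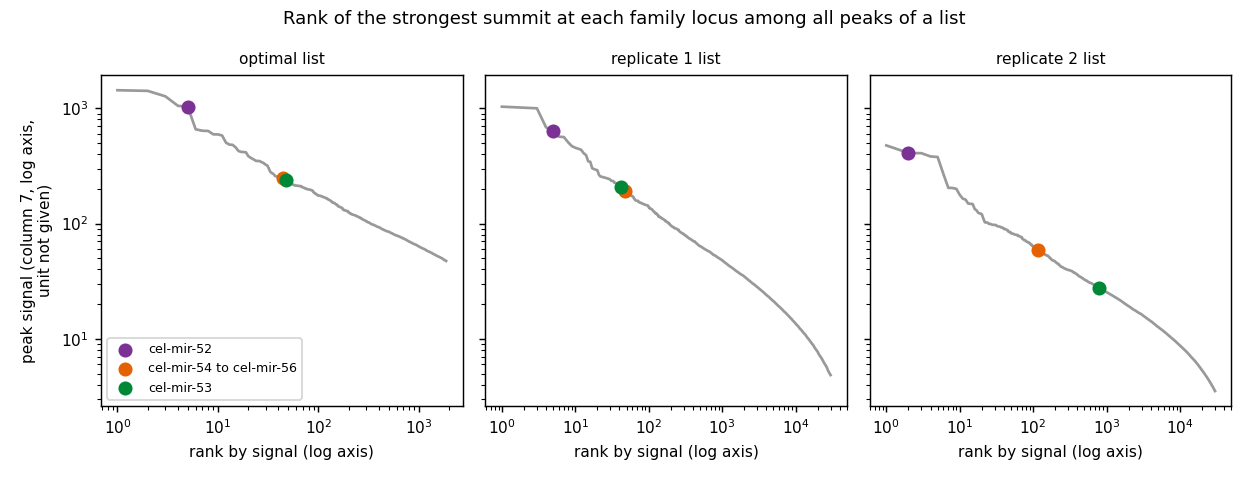
Signal (vertical log axis, authors' units) against rank (horizontal log axis) for all peaks of the optimal and both replicate lists, with the strongest summit of each place as a coloured point. cel-mir-52 is at ranks 5, 5 and 2, while cel-mir-53 is at rank 42 in replicate 1 and at rank 794 in replicate 2.

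The ratio of the replicates varied among the family's summits, as it did over all optimal summits. For 1643 of the 1861 optimal summits a summit was found within 200 bp in both replicate lists, and the median log2 of replicate 1 signal over replicate 2 signal was 1.30, with quartiles of 0.59 and 2.06. The 2 lists come from separate peak calls, so only the place of a summit within this distribution is described. The log2 ratio was 0.64, 0.25 and 0.78 at the cel-mir-52 summits at -16, 187 and -1074, all below the median. It was 2.90 at cel-mir-53, a ratio higher than that of 90.8% of the matched optimal summits. On X it was 1.71 at the summit ahead of cel-mir-54 and 0.23 at the summit behind cel-mir-56. Within this distribution the summit of cel-mir-53 lay above the upper quartile, towards replicate 1. The cel-mir-52 summits at -16 and -1074 and the summit ahead of cel-mir-54 lay between the quartiles. The cel-mir-52 summit at 187 and the summit behind cel-mir-56 lay below the lower quartile. All 6 summits were among the 1861 highest peaks of both replicates. Matched replicate summits at the 6 places lay 19 to 66 bp apart, against a median of 45 bp over the matched optimal summits.

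**Figure D3:**
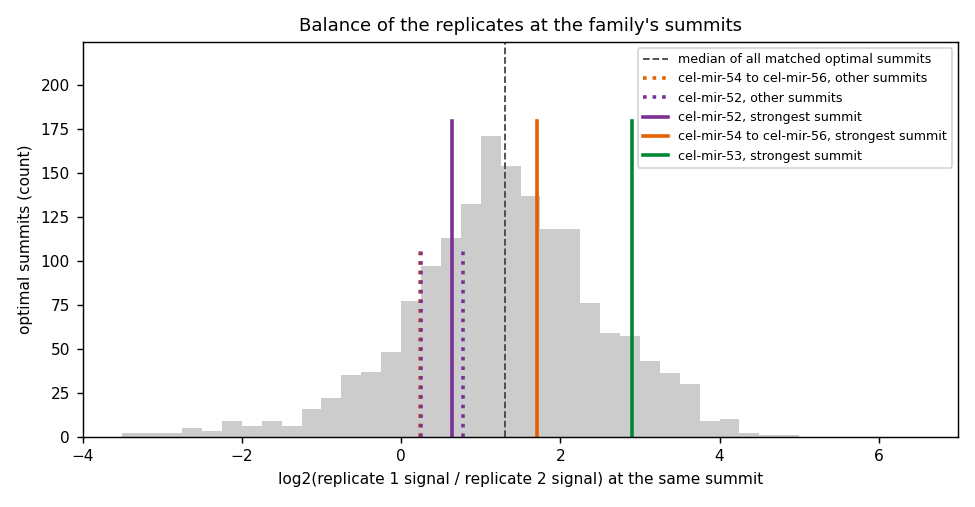
Distribution of the log2 ratio of replicate 1 to replicate 2 signal (horizontal axis) over 1643 matched optimal summits (grey bars, counts), with the median of 1.30 dashed and the family's 6 summits as lines. cel-mir-53 lies at 2.90 on the right, and the cel-mir-52 summits lie at 0.25 to 0.78, where the lines at 0.25 and 0.23 nearly overlap.

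Read in each replicate alone, at the 1861 peaks of highest signal, all 5 members kept a summit in the window (5 of 5) in each replicate. Among the 256 other microRNA genes 32 did in replicate 1 (12.5%) and 32 in replicate 2 (12.5%), with the upper end of the interval at 17.1% in each. In each replicate the 5 members again held 6 distinct summits in that upper part. In the whole lists of 30000 the windows held 7 distinct summits in replicate 1 and 11 in replicate 2, and the additional ones were low, with signals of 3.61 to 10.6.

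The protein-coding neighbours had weaker peaks at their 5′ ends. hrg-5, a gene of the haem-responsive group whose 5′ end is the nearest upstream of cel-mir-53, had no peak within 500 bp of its 5′ end in any of the 4 lists. On the other side alh-3, an aldehyde dehydrogenase gene, reached 13.7 in the pooled list, 4.94 in replicate 1 and 8.87 in replicate 2. F09A5.3, the host of the X group, reached 24.0 in the pooled list and 20.0 in replicate 1 and had no peak there in replicate 2. mob-2, a MOB kinase activator gene upstream of the group, reached 27.7 in the pooled list, 16.6 in replicate 1 and 5.22 in replicate 2. Near cel-mir-52, Y37A1B.7 reached 16.8 in the pooled list, and irld-55, a gene for a protein with an insulin and EGF receptor L domain, had no peak. None of these 6 genes had an optimal summit within 500 bp of its 5′ end, beside 959 of 19973 protein-coding genes that did (4.80%, interval 4.51 to 5.11%).

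Several short noncoding RNAs are annotated in the windows. The cel-mir-52 window touches 7 of them and the piRNA genes 21ur-6270 and 21ur-7825, and the X windows hold F09A5.11. Only the 3 noncoding RNAs at cel-mir-52 described above held an optimal summit. Strand is not recorded in a ChIP-seq peak, so polymerase on a microRNA gene cannot be told apart from polymerase on an overlapping or antisense transcript.

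Away from these summits, the next optimal summit lay at least 35362 bp off. The gap from the outermost family summit to the next optimal summit was 144952 bp upstream and 37000 bp downstream at cel-mir-52. It was 36400 and 90609 bp at cel-mir-53, and 80407 and 35362 bp at the X group, counted from the outermost of its 3 summits. The median gap between neighbouring optimal summits in the genome was 11114 bp, and the 6 gaps exceeded 63.7 to 89.1% of the 1855 gaps. The 6 gaps leave out the short ones inside a place, whereas the 1855 gaps include those inside clusters of summits. The comparison therefore favours long gaps at the family's places, and nothing is read from it. The nearest upstream neighbour of cel-mir-53 was a summit in a coding exon of ttr-16, a transthyretin-related gene, with a signal of 115.

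cel-mir-51, the family gene that is not listed, has no summit of comparable size at its own hairpin in the pooled and replicate 1 lists. The optimal summit in its window is that of cel-mir-53, at -1529 from its 5′ end. Its nearest pooled summits were at 152 with a signal of 25.4 (rank 6377) and at -86 with a signal of 20.2 (rank 9463). In the replicate 1 list the summit at 152 had a signal of 19.0 (rank 5994), against 206 (rank 42) at cel-mir-53. The replicate 2 values were closer, with a signal of 16.5 (rank 2895) at 74, inside the hairpin, against 27.6 (rank 794) at cel-mir-53. Both genes lie on the minus strand, and the strongest summit of the pair is at the upstream one.

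Set beside the other microRNA genes, the family's places had high signals, as known when they were proposed. The strongest optimal signals of the 5 members were 238 to 1033 with a median of 246. Those of the other 36 genes were 49.8 to 246 with a median of 91.7, and the upper end there is cel-mir-55b, which shares the summit ahead of cel-mir-54 (at 327 from its own 5′ end). Leaving out genes that share a family summit and counting shared summits once, 29 summits had signals of 49.8 to 216. Counted by gene, the strongest summit lay within 100 bp of the 5′ end for 3 of the 5 members (cel-mir-52, cel-mir-53 and cel-mir-54) and for 10 of the other 36 genes.

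The highest signals outside the family's summits belonged to cel-mir-80 and cel-mir-4929. cel-mir-80, on chromosome III, had 216 at -110, with rank 110 in replicate 1 and rank 29 in replicate 2. cel-mir-4929, on chromosome II, had 195 at -106, with ranks of 70 and 232. The signal at cel-mir-52 was 4.78 times that at cel-mir-80. Only cel-mir-52 stood above all other microRNA genes in the replicate 2 list too, with a signal of 410. There cel-mir-80 (97.5) and cel-mir-8196a (62.2) were above the X group (59.0). Many microRNA genes outside the family were above cel-mir-53 (27.6) in that list, cel-mir-4929 (43.2) and cel-mir-71 (44.9) among them. The place of cel-mir-53 near the top of the microRNA genes therefore did not hold in replicate 2. By the distance between percentile ranks in the 2 whole replicate lists, the genes outside the listed members most like cel-mir-52 were cel-mir-80 (0.36 percentage points), cel-mir-55b (0.40) and cel-mir-71 (0.77; signal 181 at -1106). The value of cel-mir-55b is that of the summit it shares with cel-mir-54, cel-mir-55 and cel-mir-56, which have the same distance of 0.40. These likenesses rest on 2 replicates and describe rank only.

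**Figure D4:**
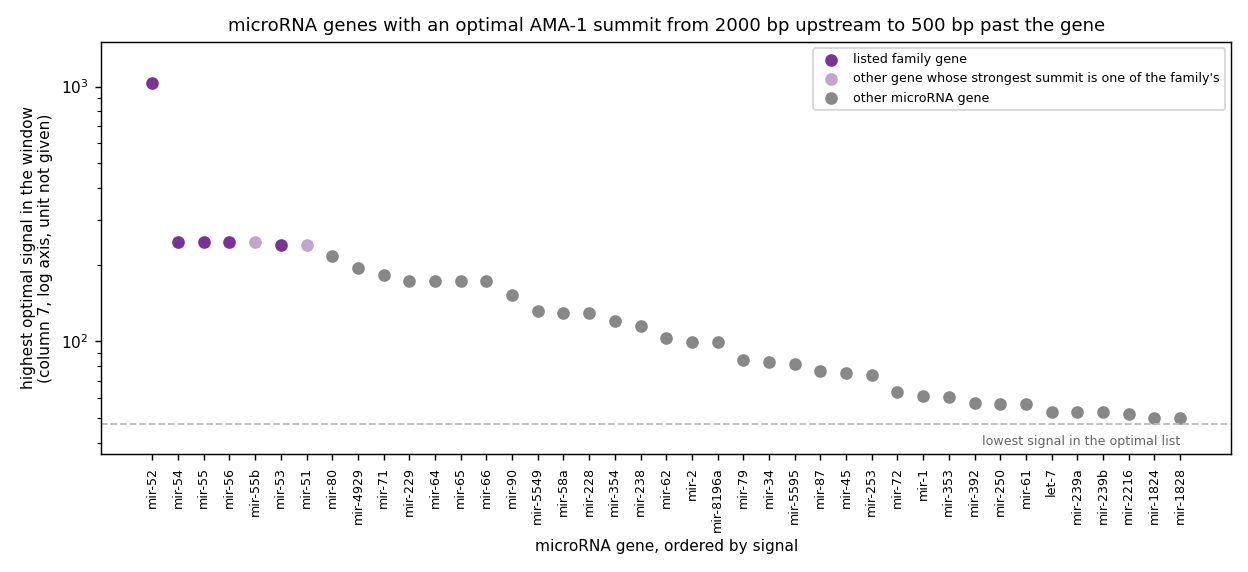
Highest optimal signal in the window (vertical log axis, authors' units) for each of the 41 microRNA genes that have one, ordered by signal, with listed family genes in purple. cel-mir-52 is at 1033, the other 4 members are at 238 to 246, and the highest gene that shares no summit with them, cel-mir-80, is at 216. In the replicate 2 list cel-mir-80 and cel-mir-8196a were above those other 4 members, and many further genes were above cel-mir-53.

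Other groups of genes with a common seed differed in how many members had an optimal summit. There are 8 seeds carried by at least 4 microRNA genes. For the miR-51 seed 6 of 6 genes had an optimal summit in the window, through 3 strongest summits, beside 14.1% of all microRNA genes outside the listed members, and the count was 6 in each replicate alone. The listed members were proposed with these summits known, and cel-mir-51 counts only through the summit of cel-mir-53. Nothing is therefore read from this count beside those of the other groups. For the seed of the miR-35 group, known from embryos, 0 of 8 did, also in each replicate. For the seed shared by cel-mir-63 to cel-mir-66 and cel-mir-229, 4 of 5 did, all through the same strongest summit and in each replicate. For the let-7 seed 1 of 5 did, and this count turned on the replicate, with 0 of 5 in replicate 1 and 3 of 5 in replicate 2. In the group that shares the seed of cel-mir-2 and in that of cel-mir-45, 2 of 4 genes had one, and in those of cel-mir-80 and cel-mir-72, 1 of 6 did. In the replicates alone, the cel-mir-2 group had 1 in replicate 1 and 2 in replicate 2, and the groups of cel-mir-45, cel-mir-80 and cel-mir-72 had 1 each in both. Only in the cel-mir-80 group was it the same gene, cel-mir-80. In the other groups it was cel-mir-45 and cel-mir-72 in replicate 1, but cel-mir-61 and cel-mir-8188 in replicate 2. These counts depend on how the genes are clustered along the genome, and no test was made.

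The peaks that adjoin the family's in rank are given with the gene whose 5′ end is nearest (piRNA and unclassified ncRNA genes left out), which need not be the gene occupied. Directly above cel-mir-52 in the optimal list was a summit on X with a signal of 1050, at -1694 from the 5′ end of a tRNA gene. Directly below it was a summit of 657 at 84 from that of mdt-26, a subunit gene of Mediator. Around the X group and cel-mir-53 were a signal of 249 at 565 from ubq-1, a polyubiquitin gene, and one of 241 at 153 from the snoRNA gene F47G4.9. Next to them were a signal of 240 at 3382 from unc-23, a BAG chaperone regulator gene, and one of 236 at 226 from osm-11, a Notch co-ligand gene. The gap below cel-mir-52 was wide, and those around the other places were small.

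The sequence from 250 bp before to 50 bp after the annotated 5′ end was searched for 3 short motifs on both strands. For the members this is the 5′ end of the hairpin, and these data do not give the start of the primary transcript. The windows of microRNA and protein-coding genes may therefore cover unlike regions. TATAAA was found at 2 of 5 members, at -12 in cel-mir-53 and at -181 in cel-mir-52, and in 28.5% of the other microRNA genes and 37.9% of protein-coding genes. GAGAGA was found at 4 of 5, in 23.0% of the other microRNA genes and 21.8% of protein-coding genes. Each of its matches at the members reads TCTCTC on the strand of the microRNA. In cel-mir-53 there are 8 matches, of which 6 overlap in the run of ct repeats from -34 printed above. cel-mir-52 has it at -110 and cel-mir-54 at -187 and -54, and the match of cel-mir-55 at -224 is the one at -54 of cel-mir-54. CTCCGCCC was found at 0 of 5, in 7.81% of the other microRNA genes and 2.40% of protein-coding genes. The windows of neighbouring hairpins overlap, so the members are not separate observations, and a match is no evidence of a bound factor.

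The sequence around the summits can be mapped uniquely. All 272 stretches of 30 bases within 150 bp of each of the 6 summits occurred once in the nuclear genome. GC content within 100 bp was 44.3% at the cel-mir-52 summit at -16, 51.2% at the summit ahead of cel-mir-54 and 35.8% at cel-mir-53, against 35.4% over the nuclear genome. It was 40.3 to 50.2% at the other 3 summits.

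Genes of the microRNA pathway were listed by role and read at their own 5′ ends. Of 17 genes, 3 had an optimal summit within 500 bp (4.80% of all protein-coding genes did). Among the processing genes, pash-1 had one, with a signal of 49.8 at -74, and it was among the top peaks of replicate 1 (41.6) but not of replicate 2. drsh-1 had only a lower pooled peak of 29.7, and dcr-1 one of 9.38. The Argonaute genes alg-1 and alg-2 had no pooled peak there. Of the cofactors, vig-1, whose fly homologue is a component of the silencing complex, had a signal of 85.3 at -430 and was in the top of both replicates (59.7 in replicate 1 and 26.2 in replicate 2). tsn-1, which encodes a Tudor staphylococcal nuclease, had 54.2 at -397 and was in the top of replicate 1 alone (53.3). The helicase gene cgh-1 had a pooled peak of 46.9, just under the lowest optimal signal of 47.4, and nhl-2, a TRIM-NHL gene, had one of 34.2. Of the GW182-type genes, ain-1 had a pooled peak of 36.4 and ain-2 one of 12.8. None of the 5 turnover genes had an optimal summit, with pooled peaks of 12.8 to 34.7 at paxt-1 (a partner of XRN-2), dcs-1 (scavenger decapping) and ebax-1 (a ubiquitin ligase subunit), and none at the exonuclease genes xrn-1 and xrn-2. cdh-3, the family's target in pharynx attachment, had no pooled peak at its 5′ end. In the optimal list, the strongest signal of each member was above those of pash-1, vig-1 and tsn-1, the only 3 pathway genes with one. Nothing is read from this, since the members were proposed with their signals known and were read in a wider window.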

How the data were processed

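ChIP-seq against AMA-1 was done in 2 biological replicates of whole L2 larvae, and the deposited files are narrowPeak lists. The deposited descriptions derive a replicate list from its own alignment plus a further file that also underlies the control-normalised track. They derive the pooled list from both alignments and the optimal one from the other 3 lists by IDR. Caller, aligner and IDR cutoff were not given in the sources used here. Column 7 is the signal the authors gave each peak, whose scale is not stated, and column 10 the deposited summit offset. Read depth is unknown, so intervals cover counting error over genes only. The 4 ce10 lists were not used.

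Summits were read on ce11 against the Ensembl 115 WBcel235 annotation and the RefSeq genome, with pandas 2.3.3, numpy 2.4.6, statsmodels 0.14.6 and matplotlib 3.10.9 in Python 3.11.15. For 1 replicate alone, its 1861 highest peaks were taken. The window search was tested on simulated summits. The members, the pathway list and the rules were chosen with earlier results of these data known. Named genes were the members, the genes in or next to their windows, the 3 other microRNA genes highest in signal, the 3 nearest cel-mir-52 in rank, peaks next in rank and pathway genes. Beyond that rule, cel-mir-51, ttr-16, developmental-timing microRNAs, other seed groups and pathway genes with no summit were named after their values were seen. So were cel-mir-8196a, cel-mir-253 and cel-mir-72, which were named for their replicate values. No comparison between groups exists, so there is no test and no p-value. The window, the overlap rule, the peak threshold and the replicates used were varied.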

Additional observations from a re-analysis of the deposited data

How the results depend on the processing

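All 5 members had a summit with the window shortened on the upstream side, with any base of the peak counted, among the 930 highest optimal peaks, in the whole pooled list and in each replicate alone. With shared summits counted once, chosen after seeing the data, the 5 genes come to 3. The other microRNA genes came to 132 in place of 36 when the whole pooled list was taken. Protein-coding genes came to 9774 in that list and to 1076 among the 930 highest optimal peaks, against 1957. The highest signal in the cel-mir-52 window was 640 in the replicate 1 list, 410 in the replicate 2 list and 1033 in the optimal list. These are separate lists on a scale not given, so the signals are not compared, and the cause of their difference was not tested. The ranks were 5, 2 and 5. Pathway genes with a summit came to 7 of 17 with the wide window, against 3, and 9.80% of all protein-coding genes had a summit in that window. The pathway count ranged from 1 to 3 when 1 replicate was left out: without replicate 1, vig-1 alone stayed. Read depth is unknown, and the signal has no stated unit. Peak lists give neither strand nor transcript, so occupancy of a hairpin cannot be told apart from that of an overlapping gene. No paired analysis was possible because there is 1 group and its values come from no test.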
